A study of Mus musculus with 2 samples.

Results

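Hair keratins and other hair follicle genes were compared between the skin of newborn mice without keratin 5 (K5-/-, labelled ko_skin) and the skin of newborn wild type mice (wt_skin). Keratin 5 is a keratin of the basal epidermis, and its loss serves as a mouse model of the blistering disorder epidermolysis bullosa simplex. RNA of 6 animals per group was pooled, and each pool was read on 1 Affymetrix array, so that the data hold 2 arrays and no replicates. No strain, sex, further allele or treatment is given in the labels, and the 6 animals of a pool cannot be separated. The members were all probe sets annotated with a keratin-associated protein gene (Krtap), with Krt25 to Krt28, Krt31 to Krt40, Krt71 to Krt75 or Krt81 to Krt86, or with Tchh, Foxn1, Padi1, Padi3, Padi4, Fgf5, Dsg4, Dsc4, Crym or Gprc5d. This gave 41 probe sets with 1 gene symbol, for 32 genes, of 10833 such probe sets on the array. A further 2 probe sets with several symbols were kept apart.

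A hair is built by concentric layers of cells that leave the matrix at the base of the follicle. The cells of the shaft make hair keratins, type I and type II keratins that pair into filaments, and then embed these filaments in keratin-associated proteins. Around the shaft lies the inner root sheath, which has its own keratins and the protein trichohyalin. In the newborn mouse the first coat is still being formed, so that follicles of different stages lie side by side in the skin.

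The hair genes were higher on the K5-/- array as a group, by a modest amount. Of the 41 probe sets, 34 had the higher deposited signal in K5-/- skin, against 58.4% of all 10833 single-symbol probe sets. Low signals of this array type carry little information, so signals below a floor of 246.7 were raised to it, and 22 member probe sets of 20 genes exceeded it on 1 array or both. Among these 22, 20 were higher and 2 were lower in K5-/- skin, with a median log2 ratio of K5-/- over wild type of 0.48, a 1.396-fold difference. Over all 7067 measured single-symbol probe sets the median was 0.04, and 54.7% were higher.

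Few single differences were large. At least 2-fold higher were 3 of the 22 probe sets, against a background of 1.51%: Krt86, Krtap3-1 and Krtap8-1. At least 2-fold lower were 0 of 22, against 0.736% of all measured probe sets. At least 1.5-fold higher were 7 of 22 (background 7.87%), and at least 1.5-fold lower were 0 (background 5.31%). Of the 22 probe sets, 3 passed the floor in K5-/- skin alone and could therefore only be higher. Without them, 17 of 19 were higher, against 53.7% of the 6469 probe sets that exceeded the floor in both pools, 5 were at least 1.5-fold higher, against 7.53%, and 3 were at least 2-fold higher, against 1.36%. The median of these 19 was 0.46, against 0.03 for the 6469.

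With 1 array per group no test was possible, and every value compares these 2 pools. The only measure of error in the data was how far probe sets for 1 gene differed in their ratios. Over 838 genes with several bright enough probe sets this spread (SD) was 0.30 in log2 units, so that 95% of differences without a change would lie within 1.498-fold if they followed a normal distribution. The 7 members past this limit were Krt86, Krtap3-1, Krtap8-1, Krt34, Krt71, Krt84 and Krt72. Single differences of the other 15 measured probe sets lie within it. Of all measured probe sets, 7.95% were higher by more than this limit. Krt34 and Krt84 are lower bounds, with wild type under the floor. The spread was taken only from signals that passed the floor in each pool, so it may not hold for them. This spread holds no variation between animals, pools or hybridisations. In whole skin, more follicle cells and more RNA per follicle cell cannot be told apart.

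**Figure D1:**
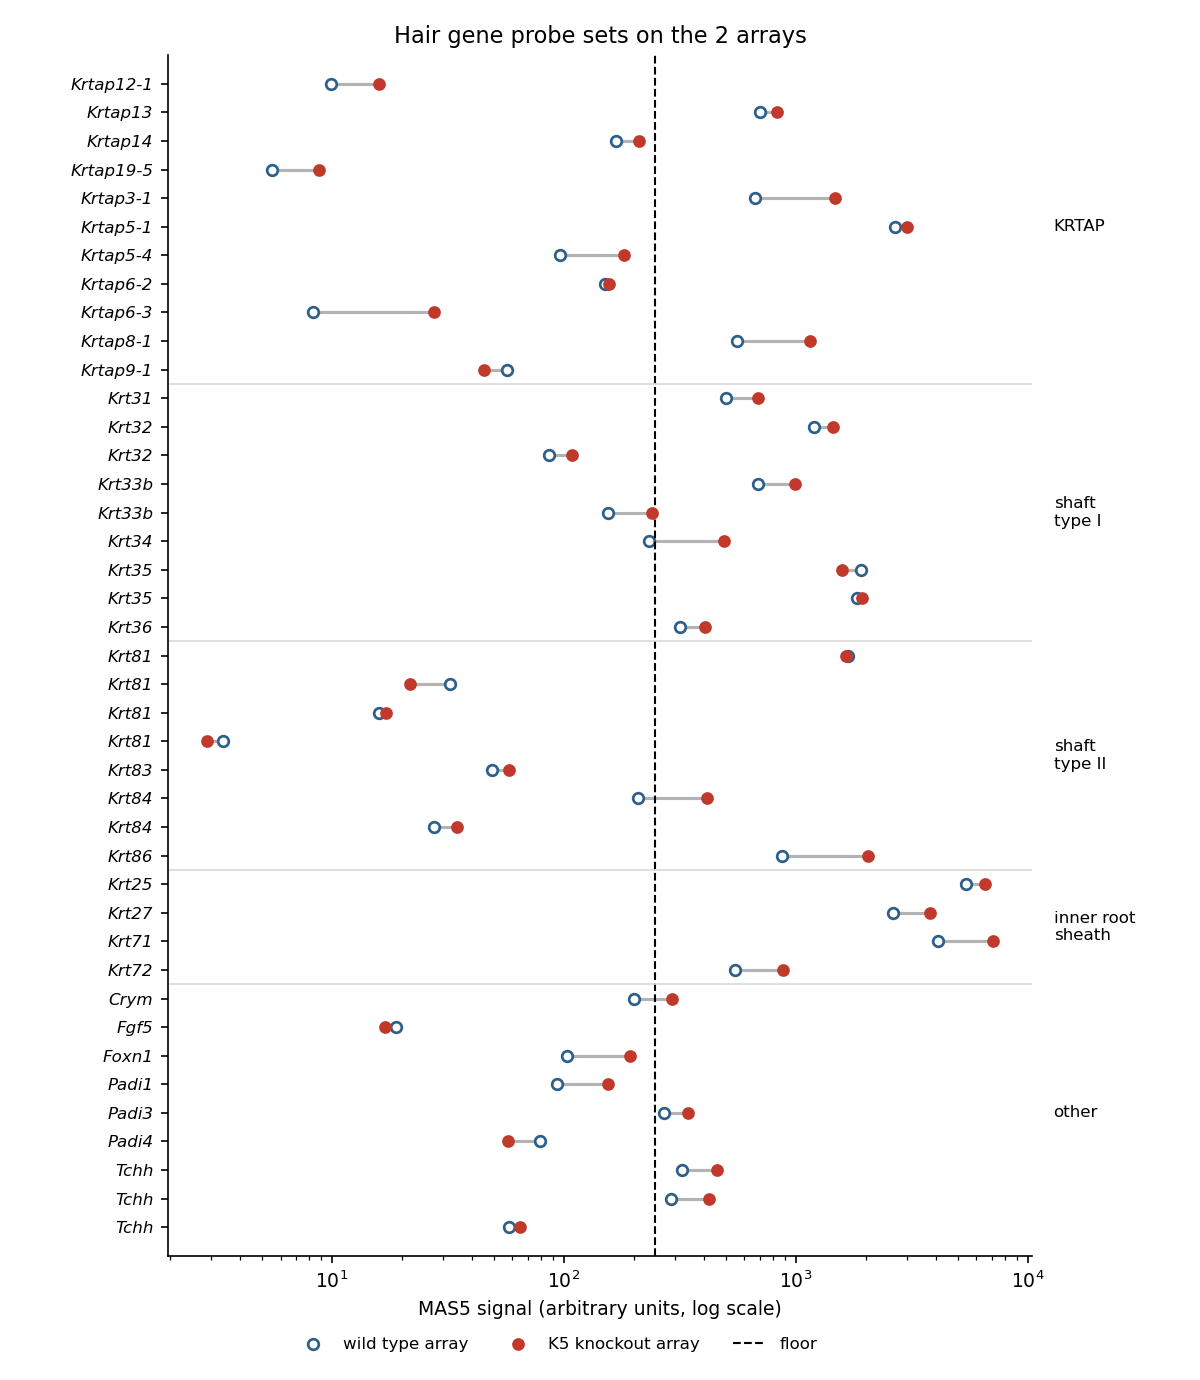
Deposited signals of the 41 single-symbol hair probe sets (MAS5 signal, log axis) on the wild type array (open circles) and the K5-/- array (filled circles); the dashed line is the floor of 246.7. For most probe sets the filled circle lies to the right of the open one, with Krt35, Krt81, Krtap9-1, Fgf5 and Padi4 among the exceptions, and 19 probe sets lie under the floor on both arrays.

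Among the keratin-associated proteins, 4 of 11 single-symbol probe sets were measured, and a pair had large and a pair had small differences. Krtap3-1, a high-sulphur protein of the hair cortex, read 1479 in K5-/- skin and 664 in wild type skin, a 2.23-fold difference (log2 ratio 1.15). Krtap8-1, of a family rich in glycine and tyrosine, read 1149 and 559, a 2.06-fold difference (log2 ratio 1.04). These ratios exceeded those of 99.1% and 98.6% of all measured probe sets.

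The other measured Krtap genes lay close to the wild type level. Krtap5-1, an ultrahigh-sulphur protein, read 2998 and 2669, a log2 ratio of 0.17. Krtap13 read 828 and 703, a log2 ratio of 0.24. Both differences are smaller than the spread between probe sets of 1 gene. A probe set shared by Krtap3-2 and Krtap3-3, which was kept apart because it names 2 genes, read 1315 and 709.9, a 1.85-fold difference in the same direction as Krtap3-1. The probe set shared by Gm10228, 1110025L11Rik and Krtap6-1 read 259 and 153, a bound of 0.07. Krtap5-4, Krtap6-2, Krtap6-3, Krtap9-1, Krtap12-1, Krtap14 and Krtap19-5 were under the floor on both arrays.

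The type I keratins of the shaft, the acidic partners, had 7 measured probe sets for 6 genes, of which 6 were higher, with a median log2 ratio of 0.36. Krt34, a cortex keratin, read 489 in K5-/- skin and 232 in wild type skin, where it was under the floor, so it was at least 1.98-fold higher. The cortex keratins Krt33b and Krt31 read 992 against 685 and 689.5 against 501, with log2 ratios of 0.53 and 0.46. Because these 3 genes resemble each other in sequence, the value of each is uncertain where probes may be shared.

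Krt36 had a log2 ratio of 0.36 (404 against 316) and the cuticle keratin Krt32 one of 0.27 (1444 against 1198). Krt35 is an early keratin of the shaft, made from the upper matrix onward. Its first probe set read 1919 in K5-/- skin and 1838 in wild type skin, a log2 ratio of 0.06, and its second read 1575 and 1906, a log2 ratio of -0.28. The 2 probe sets thus lay on either side of 0, and by their mean Krt35 was at -0.11.

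The type II keratins of the shaft, the basic partners, had 3 measured probe sets with unlike values. Krt86, a cortex keratin, had the highest ratio of the measured members: it read 2042 in K5-/- skin and 875 in wild type skin, a 2.33-fold difference (log2 ratio 1.22), above 99.3% of all measured probe sets. Krt81, which is made in the same cells and closely resembles Krt86 in sequence, read 1640 and 1669, a log2 ratio of -0.03. Krt83, the third of these relatives, was under the floor on both arrays (57.7 and 48.9). Whether probes of these genes share transcripts was not tested. Krt84, a type II keratin known from the papillae of the tongue, read 414 and 209.5 on 1 probe set, at least 1.68-fold higher, while its other probe set was under the floor on both arrays (34.6 and 27.5).

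Upstream sequences are shown for members with high or intermediate ratios from 3 of the structural groups: 2 type I shaft keratins, 2 keratin-associated proteins and 1 inner root sheath keratin. Krt86 has no entry in the promoter table used. They are the 250 bases before the annotated start from RefSeq (build GRCm38.p6), on the gene's own strand, which is the minus strand for each of the 5. Capitals mark TATAAA, the core of a TATA box, and the letters CTTTG followed by AA, TT, AT or TA, a core read by LEF and TCF factors of the Wnt pathway, on either strand. Krt34 lies at chr11:100041555-100041804, Krt31 at chr11:100050552-100050801, Krtap3-1 at chr11:99566631-99566880, Krtap8-1 at chr16:89487953-89488202 and Krt71 at chr15:101743098-101743347.
Krt34: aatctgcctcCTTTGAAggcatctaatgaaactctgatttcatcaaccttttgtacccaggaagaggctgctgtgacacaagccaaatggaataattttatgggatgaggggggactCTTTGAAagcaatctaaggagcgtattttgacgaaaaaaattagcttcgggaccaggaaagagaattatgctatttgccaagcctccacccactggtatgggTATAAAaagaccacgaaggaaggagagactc
Krt31: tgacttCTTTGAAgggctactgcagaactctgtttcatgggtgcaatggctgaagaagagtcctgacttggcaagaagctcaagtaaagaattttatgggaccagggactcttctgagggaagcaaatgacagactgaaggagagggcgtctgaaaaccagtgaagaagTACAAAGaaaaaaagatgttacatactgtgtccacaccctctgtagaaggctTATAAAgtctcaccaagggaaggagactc
Krtap3-1: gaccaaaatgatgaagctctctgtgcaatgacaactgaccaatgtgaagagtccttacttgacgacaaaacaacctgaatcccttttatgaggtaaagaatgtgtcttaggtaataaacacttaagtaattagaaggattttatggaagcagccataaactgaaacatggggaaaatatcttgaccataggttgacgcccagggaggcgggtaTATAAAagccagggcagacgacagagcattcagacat
Krtap8-1: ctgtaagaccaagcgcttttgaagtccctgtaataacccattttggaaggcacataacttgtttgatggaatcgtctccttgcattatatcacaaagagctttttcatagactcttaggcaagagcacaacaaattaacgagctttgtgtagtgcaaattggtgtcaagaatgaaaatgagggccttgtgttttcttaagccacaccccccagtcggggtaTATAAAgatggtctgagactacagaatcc
Krt71: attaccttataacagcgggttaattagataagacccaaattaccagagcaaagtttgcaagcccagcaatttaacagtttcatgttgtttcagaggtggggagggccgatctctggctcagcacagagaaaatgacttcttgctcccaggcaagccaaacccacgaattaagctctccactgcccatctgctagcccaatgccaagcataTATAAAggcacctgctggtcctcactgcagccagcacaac

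A TATAAA match was common upstream of hair genes. The RefSeq table holds 75 promoters of genes that meet the rule, on the array or not. TATAAA occurred on either strand in 56 of them (74.7%), against 12.4% of all 32851 promoters in the table. It occurred in 41 of 51 Krtap promoters and in 7 of 7 inner root sheath keratin promoters. In Krt34, Krt31, Krtap3-1, Krtap8-1 and Krt71 it began 31, 29, 37, 29 and 40 bases before the start.

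A match to any of the 4 LEF and TCF cores occurred in 24 of the 75 promoters (32.0%), against 14.8% of all promoters. The form CTTTGAA occurred in 5 of 7 type I shaft keratin promoters, against 4.46% of all. In Krt31, Krt32, Krt33b and Krt34 it began 244, 247, 247 and 240 bases before the start, and Krt34 had another 133 bases before it. No core matched in the windows of Krtap3-1, Krtap8-1, Krt71 and Krt72, which says only that these letters are not there. Genes with a high ratio thus occurred with and without these letters. A match is not evidence of binding.

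**Figure D2:**
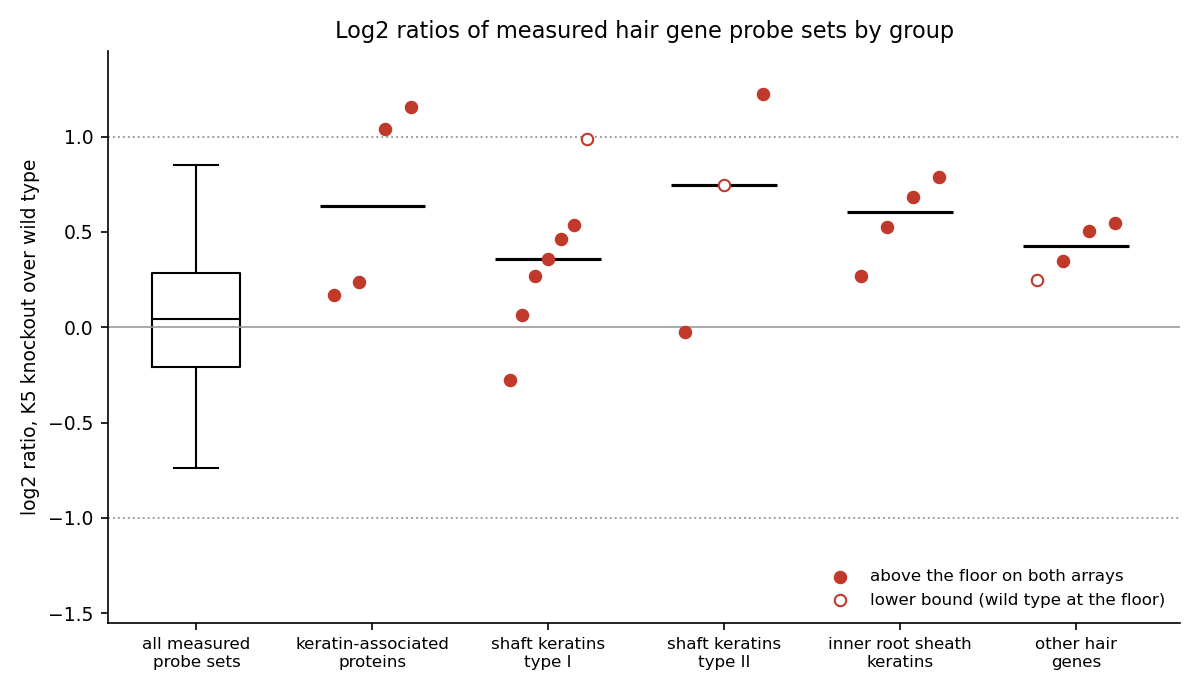
Log2 ratio of K5-/- over wild type for the 22 measured hair probe sets by group, with open symbols for lower bounds and black lines for group medians; the box at the left gives the quartiles, median and central 95% of all 7067 measured probe sets, and dotted lines mark 2-fold. Krt86, Krtap3-1 and Krtap8-1 lie above the upper dotted line, and a Krt35 and a Krt81 probe set lie below 0.

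All 4 measured keratins of the inner root sheath were higher in K5-/- skin, with a median log2 ratio of 0.60. Krt71, a type II keratin found in all layers of the sheath, read 7055 in K5-/- skin and 4087 in wild type skin, a 1.73-fold difference (log2 ratio 0.79). Krt72, the type II keratin of the sheath's cuticle, read 879.9 and 549, a 1.60-fold difference (log2 ratio 0.68). Both exceed the limit given by probe sets of 1 gene.

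The type I partners had smaller ratios. Krt27 read 3779 and 2626, a log2 ratio of 0.53, and Krt25 read 6519 and 5411, a log2 ratio of 0.27. The 2 probe sets of Tchh, which encodes trichohyalin, the matrix protein of sheath and medulla, were alike: 458 against 323 and 423 against 290.3, with log2 ratios of 0.50 and 0.54. The remaining Tchh probe set was under the floor on both arrays. Padi3, the deiminase that modifies trichohyalin, read 342 and 269, a log2 ratio of 0.35, and Padi1 and Padi4 were under the floor.

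Of the remaining genes little was measurable. Crym, which encodes a thyroid hormone binding protein, read 293 and 201, at least 1.19-fold higher. Foxn1, the transcription factor missing in nude mice and needed for shaft formation, was under the floor at 192 and 103. Fgf5, which ends the growth phase of the follicle, was under the floor at 17.0 and 18.8. In all, 12 genes had no measured probe set. The 19 probe sets under the floor on both arrays read between 2.90 and 239, and 14 of them had the higher signal in K5-/- skin, as did 2463 of the 3766 single-symbol probe sets under the floor over the whole array. Of 56 Krtap genes in the gene table, only 11 had a single-symbol probe set. Outside that family Dsg4, Gprc5d, Krt26, Krt28, Krt33a, Krt39, Krt40, Krt73, Krt74, Krt75 and Krt82 had no probe set here. Dsc4 was found neither on the array nor in the gene table, and Krt37, Krt38 and Krt85 gave no member.

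Higher members were found in each range of brightness. Of 7 members whose brighter array was below 2 times the floor, 2 were at least 1.5-fold higher, against 5.81% of all probe sets in that range. These 2 were Krt34 and Krt84, which, like Crym in the same range, passed the floor in K5-/- skin alone. All of these could therefore only be higher. Of 10 members between 2 and 8 times the floor 3 were, against 9.93%, and of 5 members above 8 times the floor 2 were, against 5.74%.

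A mixed list of other follicle genes had a median near that of all measured probe sets. Its 114 genes, called regulators here, were regulators, signals and adhesion genes of hair development and growth. Some structural and layer genes, such as Krt17, Tgm3 and S100a3, were also in it. The list had 86 genes on the array and 95 measured probe sets, of which 52 were higher and 43 lower. The median log2 ratio was 0.05, and it was -0.0077 under quantile normalization and under a higher floor (60th percentile). At least 2-fold higher was 1 of the 95 (background 1.51%), and 3 were at least 2-fold lower (background 0.736%). At least 1.5-fold higher were 8 (background 7.87%), and 11 were at least 1.5-fold lower (background 5.31%). The difference between the 2 lists was not tested.

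The regulators at the high end were Pdgfra, Notch1 and Igf1r. Pdgfra, a growth factor receptor of dermal cells, read 6700 in K5-/- skin and 3306 in wild type skin, a log2 ratio of 1.019, but its second probe set had a bound of 0.34. Notch1, a receptor in the differentiating matrix, had a bound of 0.77 (422 against 182) and 0.51 on its second probe set. Igf1r, the receptor of insulin-like growth factor, was at 0.75 (944.5 against 561). At the low end were Mycn, a growth regulator (335 against 736, log2 ratio -1.13), the vitamin D receptor gene Vdr, whose loss in mice leads to hair loss (249 against 518, -1.06), and Fst, the activin inhibitor follistatin (606 against 1229, -1.02). Vdr was barely above the floor in K5-/- skin, and its second probe set was under the floor on both arrays (163 against 156).

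The following genes of the list were chosen after their values were seen. For the hedgehog pathway, which drives growth of the hair bud, no value given here passed the 1.498-fold limit from probe sets of 1 gene. The signal Shh read 1105 and 1069 (log2 ratio 0.05) and its target Gli1 2225 and 2238 (-0.01). Smo was at -0.44, Gli2 at -0.23 and the 2 probe sets of the receptor gene Ptch1 at 0.06 and 0.41. Among genes of the differentiating layers, Gata3, a factor of the inner root sheath, at 0.65 and the Notch ligand gene Jag2 at -0.99 passed that limit in opposite directions. Dlx3 at 0.45, Cux1 at -0.14, Prdm1 at -0.12 and Msx2 at 0.08 lay within it. Krt17, a keratin of the outer root sheath and of stressed epidermis, was lower on all 3 probe sets, at -0.999, -0.90 and -0.57.

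**Figure D3:**
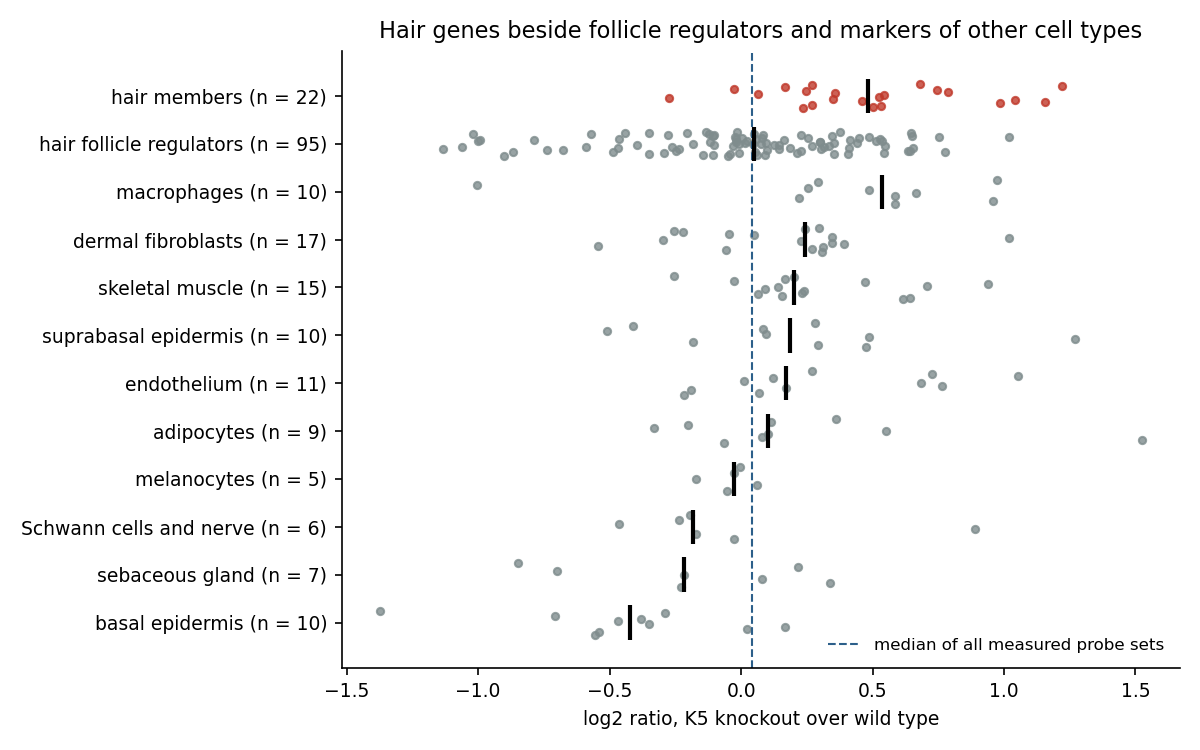
Log2 ratio of K5-/- over wild type for each measured probe set of the hair members, of the follicle regulators and of marker lists of other cell types, with black lines for list medians, values at the floor on 1 array shown at their bound (lower where wild type is at the floor, upper where K5-/- is), and a dashed line at the median of all measured probe sets (0.04). The hair members have a median of 0.48, the regulators one of 0.05 and the markers of the basal epidermis one of -0.42.

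Markers of other cell types also differed between the 2 pools. The source name of the samples is epidermis, but genes of dermis and muscle were among the bright ones on both arrays, with Col1a1 at 48700 in K5-/- and 39262 in wild type skin and the muscle actin gene Acta1 at 41500 and 39734. The pools are called skin here for that reason. Of 10 measured probe sets for basal epidermis markers, 8 were lower in K5-/- skin, with a median of -0.42, from Lamb3 at an upper bound of -1.37 to Itgb1 at 0.17. Summed over the list the signals were 31364 and 33908. The basal keratins themselves gave no check of the labels: Krt5 read 81.2 and 46.6, Krt14 41.6 and 27.0 and Krt15 7.20 and 12.9, all under the floor, in a tissue where Krt5 and Krt14 are abundant.

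Markers of the suprabasal epidermis were higher in 7 of 10 probe sets, with a median of 0.19, from Krt2 (-0.51) to Ivl (1.27). Macrophage markers were higher in 9 of 10, with a median of 0.54, close to that of the hair genes. They ran from C1qb at -1.004 on 1 of its probe sets to Adgre1 at 0.97, but C1qb was at 0.96 on its other probe set. The summed signals of the macrophage list were 14393 and 10256. Dermal fibroblast markers were higher in 11 of 17 (median 0.24, from Thy1 at -0.54 to Pdgfra at 1.019). Skeletal muscle markers were higher in 13 of 15 (median 0.20, from Tnnc1 at -0.26 to Myh8 at 0.94). Endothelial markers were higher in 9 of 11 (median 0.17, from Tie1 at -0.22 to Vwf at 1.05), but Tie1 was at 0.68 on its other probe set. Adipocyte markers were higher in 6 of 9 (median 0.10, from Retn at -0.33 to Lep at 1.52). None of these lists holds a marker with a signal of 0, as the lowest deposited value is above it.

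The lists for melanocytes, sebaceous gland, and Schwann cells and nerve had medians below 0, that of the melanocytes by little. Of 5 measured melanocyte probe sets 1 was higher, with a median of -0.03, from Dct (-0.17) to Tyrp1 (0.06). Sebaceous gland markers were higher in 3 of 7 (median -0.22, from Scd1 at -0.85 to Plin2 at 0.34). Schwann cell and nerve markers were higher in 1 of 6 (median -0.18, from Gap43 at -0.46 to Mbp at 0.89), but Mbp was at -0.19 on its other probe set. The summed signals of the hair members themselves were 39424 in K5-/- skin and 28998 in wild type skin. The part that the makeup of the 2 pools has in the ratios of the hair genes was not tested.

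The direction of the group was the same under each of the 12 other treatments of the signals, while its size depended on them. The median of the measured hair probe sets lay between 0.27 with a higher floor, at the 60th percentile of all signals, and 0.53 with a lower one, at the 25th percentile. The median of all measured probe sets lay between 0.00 and 0.10 under the same treatments. Krt86 was at least 2-fold higher under 12 of 12 and Krtap3-1 under 11 of 12. Most of these treatments left both log2 ratios at their main values, so the counts largely repeat the main result. Only the pseudocount, quantile normalization and the lowess correction changed them by more than rounding. Krtap3-1 was at 0.92 with the pseudocount, 1.10 under quantile normalization and 1.12 under the lowess correction. Krt86 became smaller under each of these but stayed above 2-fold. Krtap8-1 was at least 2-fold higher under 8 of 12, all of which left its log2 ratio at the main value of 1.04. Under each treatment that changed it, Krtap8-1 was below 2-fold. Its log2 ratio was 0.80 with the higher floor, 0.79 with a pseudocount, 0.96 under quantile normalization and 0.99 under the lowess correction. With a pseudocount in place of the floor only Krt86 was at least 2-fold higher. Krt34 reached 2-fold under 2 of the 10 treatments that gave it a value.

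**Figure D4:**
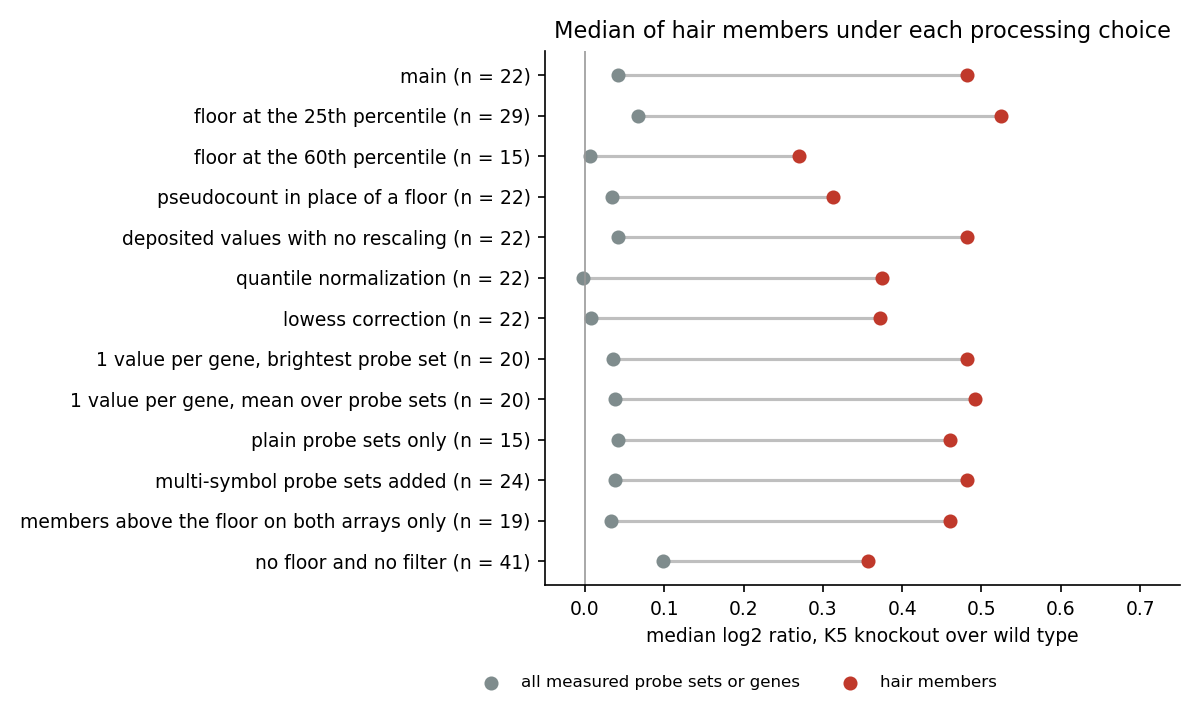
Median log2 ratio of K5-/- over wild type for the measured hair members (red) and for all measured probe sets or genes (grey) under the main and 12 other treatments of the signals, with the number of members measured in brackets. The hair members lie to the right of the grey points in every row, between 0.27 and 0.53.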

How the data were processed

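The deposited table holds 1 signal intensity per probe set and array on a linear scale. Per the labels' protocols, total RNA of 6 animals per group was extracted with TRIzol, pooled and column-purified, and biotinylated cRNA was made from 2 µg. The submitters' processing notes name MAS5; no version, scaling target, detection call or genome build was given there. The 2% trimmed means of the deposited intensities were 993.08 and 993.16, so the authors' values were already on 1 level, and a difference in total RNA per cell cannot be seen in them.

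Of 12488 probe sets 66 are controls; of the rest 10833 have 1 symbol, 396 several and 1193 none in the platform annotation, which can be old. Entrez identifiers of all 41 single-symbol member probe sets were found in a RefSeq gene table (GRCm38.p6). Arrays were rescaled to 1 trimmed mean, signals under the 40th percentile (246.7) were raised to it, and log2 ratios of K5-/- over wild type were taken per probe set. A probe set was measured when above this floor on at least 1 array; with wild type under it the ratio of K5-/- over wild type is a lower bound, and with K5-/- under it an upper bound.

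With 1 array per group no test was run: results are sizes and counts past 2-fold, beside the same over all measured probe sets. Every member was named; of the regulators those past 2-fold and the 3 highest and lowest, and of each marker list the highest and lowest. The members and lists were chosen with earlier results of these data known. Low-signal treatment, scaling, probe set choice and threshold were varied. The calculation was tested on simulated data (Python 3.11.15, pandas 2.3.3, statsmodels 0.14.6). The simulated noise was smaller than the spread between probe sets of 1 gene, so that test checks the calculation and not the precision of these arrays. Precision is limited by having 2 arrays.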

Additional observations from a re-analysis of the deposited data

How the results depend on the processing

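No paired analysis was possible because each group has 1 array, and for the same reason no array could be left out. No median of a group of hair members changed sign; that of the regulators, 0.0483, was -0.0077 under quantile normalization and under a higher floor (60th percentile). At that higher floor, 13 of 15 measured members were higher, and the medians were 0.27 for all hair members, 0.52 for Krtap genes, 0.064 for shaft keratins (0.41 in the main setting) and 0.47 for inner root sheath keratins (0.60). With a lower floor (25th percentile) they were 0.33 for Krtap genes (0.64 in the main setting) and 0.54 for the other hair genes (0.43). With a pseudocount of the floor's size in place of the floor, which shrinks ratios of dim genes by construction, 1 member was at least 2-fold higher. The medians were then 0.31 for all members, 0.49 for Krtap genes, 0.28 for shaft keratins, 0.49 for inner root sheath keratins and 0.29 for other hair genes. Quantile normalization gave 0.37, 0.30 and 0.28 for all members, shaft keratins and other hair genes, and the lowess correction 0.37, 0.30 and 0.31. With plain probe sets only, those named by a number followed by _at with no further letter, the other hair genes were at 0.30. That setting left out the measured probe sets of Krt27, Krt35, Krt36, Krt84 and Tchh. With no floor and no filter 34 of 41 members were higher, 5 at least 2-fold, with a median of 0.36. At 1.5-fold in place of 2-fold, 7 were higher. Where no construction explains a shift, the cause was not tested. The other 85 values of groups and counts moved by under 0.1, or for counts by at most 1.5 times, and 2 values of single probe sets moved by more than the spread between probe sets of 1 gene (Krt31 and Krt34). The first Krt35 probe set takes the opposite sign by the mean over probe sets (-0.11).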

Other observations

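Most members lie in gene clusters, and higher members were found in more than 1 of them. Here members counted as 1 cluster when at most 20 protein-coding genes separated them in the RefSeq gene table. The cluster from Krt25 to Krt36, with 36 member genes of type I keratins and keratin-associated proteins, had 10 measured probe sets, of which 9 were higher in K5-/- skin, with a median log2 ratio of 0.41. The cluster from Krt81 to Krt73, with 9 type II keratin genes, had 5, of which 4 were higher (median 0.75). That median is the value of Krt84, a lower bound. Krt84 here and Krt34 in the cluster from Krt25 to Krt36 passed the floor in K5-/- skin alone and could only be higher. Of the cluster from Krtap24-1 to Krtap11-1, with 24 genes, only Krtap8-1 and Krtap13 were measured, both higher. Many genes of these clusters, Krtap24-1 and Krtap11-1 among them, had no probe set on the array. Over all measured single-symbol probe sets 54.7% were higher, and differences between clusters were not tested. Within a cluster neighbours differed: Krt86 was at 1.22 and Krt81 at -0.03.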
